A study of Mus musculus with 12 samples.

Results

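Ucp1 marks the brown-like (thermogenic) adipocyte, and its reads differed by a wide margin among libraries of the same gonadal fat depot. The 12 libraries were therefore selected on Ucp1 alone: 3 with more than 100 CPM (the counts of a gene for every 1000000 counts of its library) and 9 with less. All other genes are described between these 3 high-Ucp1 and 9 low-Ucp1 libraries. Because a measured value chose the libraries, the comparison is given as levels and counts with no test. A gene is said not to overlap where all 3 high libraries lie above, or all below, the 9 low ones. The log2 ratio is that of the mean CPM of the high over the low libraries, with 0.5 CPM added to each mean.

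Each library came from gonadal white adipose tissue of a pregnant mouse at E17.5 and was sequenced from transcript 3' ends. The 3 groups hold 4 libraries each. WT vehicle mice are labelled wild type for Tnfrsf11a (the receptor RANK), lack the Foxn1 Cre and were given vehicle. KO vehicle mice are Tnfrsf11a knockouts with Foxn1 Cre, also given vehicle, and KO Treg mice are such knockouts given the treatment labelled Treg. Foxn1 is a transcription factor of thymic and skin epithelium, so the promoter that drives this Cre is not one of adipocytes. All 3 groups are pregnant, and every library is labelled with vehicle or Treg. The labels do not state that the libraries are separate animals, so p-values measure only the spread between these samples.

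Brown and brown-like adipocytes burn fatty acids to make heat. Noradrenaline acts on beta-adrenergic receptors, cAMP rises, stored triglyceride is broken down, and UCP1 lets protons flow back across the inner mitochondrial membrane without making ATP. Gonadal fat of mice is a white depot in which such cells are usually scarce. In whole tissue, fewer cells of a type and less RNA per cell cannot be told apart.

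Ucp1 (chr8:83290352-83298452, plus strand, GRCm38) stood at 1886 CPM in WT vehicle 1 (24468 counts), and KO vehicle 2 held 829 CPM (7531 counts), against 204 CPM for KO vehicle 3 (1920 counts). KO vehicle 3 is the library just inside the threshold, and WT vehicle 4 (48.8 CPM, 374 counts) and KO Treg 2 (43.2 CPM, 378 counts) are those just outside it. The other 7 libraries held 1 to 9 counts of Ucp1, or 0.117 to 1.37 CPM. The high libraries come from both genotypes, and none is from KO Treg. The SD exceeded the mean in each group of 4 libraries: WT vehicle averaged 484 ± 935 CPM (SD, n = 4). KO vehicle averaged 258 ± 392 CPM, and KO Treg 11.4 ± 21.2 CPM.

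**Figure D1:**
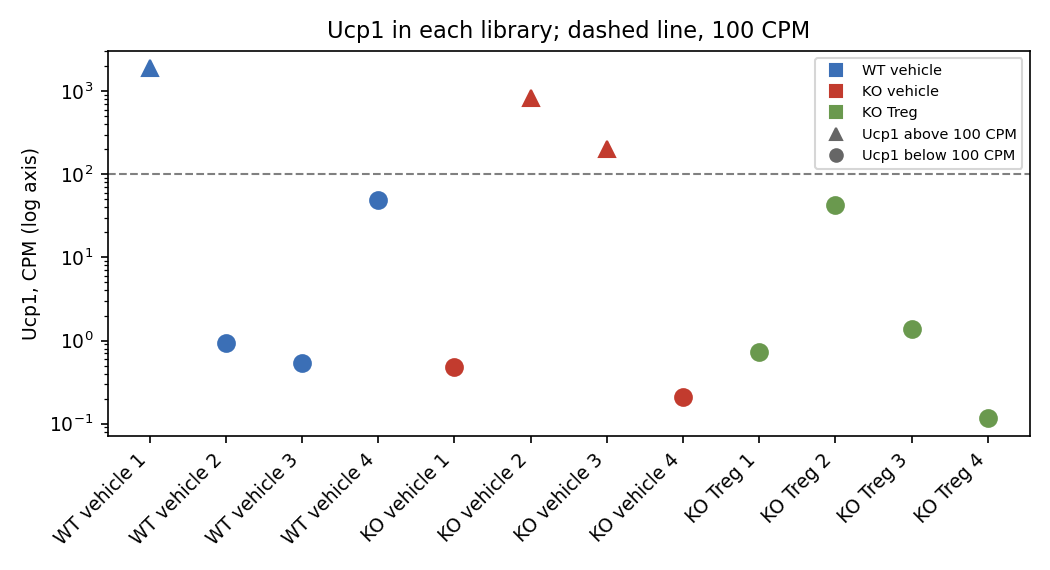
Ucp1 in CPM (log axis) for each of the 12 libraries, coloured by group; triangles are the 3 libraries above the dashed line at 100 CPM. WT vehicle 1, KO vehicle 2 and KO vehicle 3 lie between 204 and 1886 CPM, WT vehicle 4 and KO Treg 2 just below 50 CPM, and the other 7 at or below 1.37 CPM.

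Library totals ran from 5551967 to 12972655 counts, and WT vehicle 1 was the deepest. The numbers in the sample titles fall into a lower series of 8 and a higher series of 4, and all 3 high-Ucp1 libraries are of the lower series. What the series stand for is not said in the labels. The summed level of 19 genes shared by all adipocytes (such as Adipoq, Fabp4 and Plin1) was 86465 to 111561 CPM in the high and 83049 to 106192 CPM in the low libraries, so every library holds abundant adipocyte RNA. Placental transcripts were present in KO vehicle 1 and KO Treg 2, both low-Ucp1 libraries: Tpbpa, a trophoblast gene, stood at 13.2 and 38.4 CPM there and at no more than 0.783 CPM in any other library.

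The promoters of Ucp1, of Dio2 (the deiodinase that makes active thyroid hormone) and of Ppargc1a (PGC-1alpha, a coactivator of mitochondrial and thermogenic genes) are shown because these genes were high together and are known targets of cAMP signalling. Each runs 5' to 3' from 250 bases before to 50 bases after the gene start in RefSeq (GRCm38.p6). Capitals mark the half-site of the cAMP response element, TGACG or its reverse complement CGTCA, searched on both strands. The regions are chr8:83290098-83290397 (plus strand), chr12:90738989-90739288 (minus strand) and chr5:51567676-51567975 (minus strand).
Ucp1: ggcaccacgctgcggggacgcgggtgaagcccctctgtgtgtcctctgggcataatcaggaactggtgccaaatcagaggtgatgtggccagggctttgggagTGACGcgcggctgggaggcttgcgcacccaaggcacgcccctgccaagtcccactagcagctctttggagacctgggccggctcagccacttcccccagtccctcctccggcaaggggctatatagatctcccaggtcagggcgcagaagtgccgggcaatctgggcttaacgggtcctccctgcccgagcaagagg
Dio2: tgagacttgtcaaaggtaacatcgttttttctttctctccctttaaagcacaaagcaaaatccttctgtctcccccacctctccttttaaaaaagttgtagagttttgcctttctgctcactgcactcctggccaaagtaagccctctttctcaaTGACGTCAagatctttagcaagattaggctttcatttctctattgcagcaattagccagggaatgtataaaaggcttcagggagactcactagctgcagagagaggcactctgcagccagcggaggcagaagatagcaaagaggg
Ppargc1a: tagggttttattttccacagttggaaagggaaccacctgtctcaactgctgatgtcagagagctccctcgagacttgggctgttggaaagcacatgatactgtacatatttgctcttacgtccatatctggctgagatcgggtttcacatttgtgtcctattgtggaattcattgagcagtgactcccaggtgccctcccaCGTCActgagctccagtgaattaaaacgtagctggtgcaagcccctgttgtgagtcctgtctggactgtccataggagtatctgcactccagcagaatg
The window of Ucp1 holds 1 half-site, which starts 147 bases before the gene start, and that of Ppargc1a 1, which starts 49 bases before it. The window of Dio2 holds 2 that overlap by 2 bases, TGACG starting 95 and CGTCA starting 92 bases before the gene start. Of 20 genes looked up (Ucp1, the 14 other genes of the naming rule, Fabp3, Elovl3, Slc27a2, Gyk and Ppara), 15 had an entry in the RefSeq promoter table, and 5 of those 15 held the half-site (these 3, Fabp3 and Ppara). It occurs in 20.8% of all 32851 promoter windows of this length. The nuclear receptor half-site AGGTCA or TGACCT was also in 5 of the 15 (Ucp1, Perm1, Tuba8, Fndc8 and Slc27a2) and in 16.3% of all windows. A match is a description of the letters and not a site shown to be bound.

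Genes of the thermogenic programme were high in the libraries with high Ucp1. Of 12928 genes with a mean of at least 0.5 CPM over the 12 libraries, 102 were higher without overlap (0.789%) and 80 lower (0.619%). With at least a 2-fold difference in mean, 23 were higher (0.178%, Ucp1 included) and 8 lower (0.0619%). A stricter filter on low counts (filterByExpr without groups), which also removes Ucp1, left 13 and 2. Of the 23, Otop1, Perm1 and Elavl3 had a mean under 0.5 CPM in the low libraries and were kept through the high ones, so they had to differ. Of 27 genes in the list of thermogenic adipocyte genes, 26 were in the files and all 26 were kept; 10 of them were higher without overlap, each by at least 2-fold, and none was lower. The median log2 ratio of the 26 was 1.81, beside -0.02 over all 12928 genes. Of the 26, 25 had a ratio above 0, against 5801 of the 12928. Otop1 and Slc27a2, both of this list, had means of 0.444 and 0.0774 CPM in the low libraries. They were kept through the high ones and had to have a ratio above 0, so they add no support to these list values. Cpn2, also of this list, did not pass filterByExpr by group, and whether the high libraries kept it was not examined. The median and the 25 of 26 still include these genes, and Otop1 is also among the 10. Without KO vehicle 3, 19 of the list and 62 genes in all were higher by these criteria.

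Cidea, a lipid droplet protein of brown adipocytes, reached 2889.5 CPM in WT vehicle 1. KO vehicle 2 held 1201 CPM and KO vehicle 3 held 767 CPM. In the low libraries it ran from 25.0 to 289 CPM, with a median of 49.9 CPM. The order of the 3 high libraries was that of Ucp1, and the 2 next highest values were those of KO Treg 2 (289 CPM) and WT vehicle 4 (207 CPM), which also come next for Ucp1. The log2 ratio of Cidea was 3.96.

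Cpt1b, the muscle and brown fat form of the enzyme that carries long-chain fatty acids into mitochondria, had the largest ratio of the genes without overlap other than Ucp1 (4.24). It was at 115, 59.6 and 23.6 CPM in WT vehicle 1, KO vehicle 2 and KO vehicle 3, against 1.17 to 7.09 CPM in the low libraries. Its exons overlap the annotated transcript Gm44502 on the same strand, so reads of the pair cannot be told apart. Cpt1a, the other main isoform, did not separate the libraries, with a log2 ratio of 0.08.

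The 2 subunits of cytochrome c oxidase that are typical of brown fat and muscle were both high. Cox7a1 was at 191, 127 and 55.7 CPM in WT vehicle 1, KO vehicle 2 and KO vehicle 3, against 9.55 to 32.8 CPM in the low libraries (log2 ratio 2.91). Cox8b was at 386, 167 and 143 CPM against 21.4 to 110.5 CPM (1.81). The gap between the high and the low libraries was narrower for Cox8b, and its low libraries spread over a wider range.

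Dio2 was at 51.3, 19.9 and 9.13 CPM in WT vehicle 1, KO vehicle 2 and KO vehicle 3, against 0.240 to 3.91 CPM in the low libraries (log2 ratio 3.64). Otop1, a proton channel, was at 21.1, 5.50 and 8.92 CPM against 0 to 2.17 CPM (3.71). Acot11, a fatty acyl-CoA thioesterase, was at 40.9, 11.8 and 17.9 CPM against 0.180 to 3.54 CPM (3.93). Otop1 and Acot11 share an order in which KO vehicle 3 lies above KO vehicle 2, the reverse of Ucp1. Pank1, which starts coenzyme A synthesis, was at 134, 41.0 and 20.6 CPM against 7.29 to 13.5 CPM (2.53). S100b, a calcium-binding protein, was at 70.3, 65.4 and 27.6 CPM against 7.44 to 21.3 CPM (1.92). Letmd1, a mitochondrial membrane protein, was at 179, 99.8 and 77.2 CPM against 47.2 to 58.5 CPM (1.15). These 3 genes keep the order of Ucp1 in the high libraries.

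Several list genes were far higher in WT vehicle 1 and KO vehicle 2 than in KO vehicle 3. Fabp3, a fatty acid binding protein of heart, muscle and brown fat, was at 697 CPM in WT vehicle 1 and 449.9 CPM in KO vehicle 2, but at 15.9 CPM in KO vehicle 3. That is below WT vehicle 4 (22.0 CPM), so Fabp3 overlaps although its log2 ratio of 6.10 is the largest of the list. The other 8 low libraries held 1.04 to 7.66 CPM. Slc27a2, a fatty acid transporter and acyl-CoA synthetase, was at 16.0 and 5.28 CPM in WT vehicle 1 and KO vehicle 2, at 0.425 CPM in KO vehicle 3 (4 counts) and at 0 to 0.457 CPM in the low libraries. The myoglobin gene Mb, which stores oxygen in muscle, followed the same pattern, with 15.7, 9.79 and 0.319 CPM in the high libraries and 0.152 to 2.61 CPM in the low ones. The skeletal muscle list as a whole did not, with a median of -0.14.

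Gyk, glycerol kinase, was at 106, 42.1 and 12 CPM in WT vehicle 1, KO vehicle 2 and KO vehicle 3, against 4.78 to 13.3 CPM in the low libraries. Elovl3, a fatty acid elongase, was at 93.5, 45.9 and 14.1 CPM against 1.04 to 19.6 CPM. Plin5, which ties lipid droplets to mitochondria, was at 174, 183 and 69.0 CPM against 23.1 to 126 CPM, where the 126 CPM is KO vehicle 1. All 3 overlap because KO vehicle 3 lies within the range of the low libraries.

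Some members did not separate the libraries. Adrb3, the main beta-adrenergic receptor of mouse adipocytes, was at 601, 384 and 881 CPM in the high and 458 to 971 CPM in the low libraries (log2 ratio -0.12). Cox4i1, the common subunit 4 of cytochrome c oxidase, had a ratio of 0.22, Kng2 of 0.26 and Cited1 of 0.08. The remaining overlapping members had ratios of 0.47 (Acsl5), 0.50 (Sirt3), 0.82 (Clstn3), 0.84 (Slc25a20 and Acaa2), 1.28 (Mpzl2) and 1.81 (Cpn2, at no more than 3.93 CPM). Eva1, the list symbol not found, is an older name of Mpzl2.

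**Figure D2:**
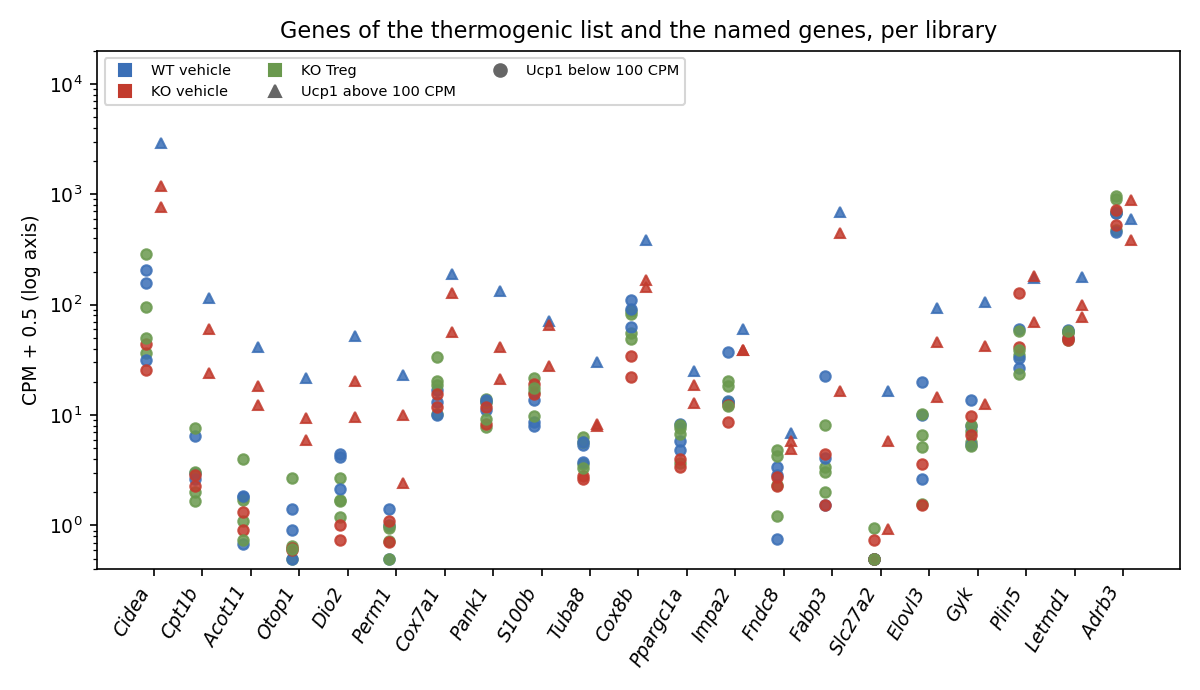
CPM + 0.5 (log axis) of 21 genes in each library, coloured by group; triangles are the 3 high-Ucp1 and circles the 9 low-Ucp1 libraries. From Cidea to Fndc8 all triangles lie above all circles, from Fabp3 to Plin5 the lowest triangle (KO vehicle 3) lies among the circles, Letmd1 again separates them, and Adrb3 does not.

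Reads of each gene were also set against those of Ucp1. For each 100 reads of Ucp1 there were 153 reads of Cidea in WT vehicle 1 (95% counting interval 151 to 156), 145 in KO vehicle 2 (141 to 149) and 376 in KO vehicle 3 (358 to 396). WT vehicle 4 held 424 (379 to 476) and KO Treg 2 held 670 (601 to 748). The intervals are exact (Clopper-Pearson) and cover counting error only. Ucp1, which chose and ordered the libraries, is the denominator here, so these ratios are a description only. The remaining low libraries, with at most 1.37 CPM of Ucp1, still held 25.0 (KO vehicle 1) to 156 CPM (WT vehicle 2) of Cidea. Such a level in the near absence of Ucp1 raises the ratio where Ucp1 is low.

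In KO vehicle 3 some genes had more and others fewer reads for each read of Ucp1 than in the other 2 high libraries. Ppargc1a had 1.3 and 1.5 reads for each 100 of Ucp1 in WT vehicle 1 and KO vehicle 2, and 8.91 (95% counting interval 7.57 to 10.4) in KO vehicle 3. Acot11 had 2.17 and 1.42, and 8.80 (7.48 to 10.3). Fabp3 went the other way, with 37.0 and 54.3, and 7.81 (6.57 to 9.23) in KO vehicle 3. Among the 3 high libraries Perm1 differed little, with 1.19, 1.16 and 0.938 (0.554 to 1.49), as did Gyk, with 5.60, 5.09 and 5.89 (4.82 to 7.12). Ppargc1a was at 2.87 to 7.78 CPM in the low libraries, so the limit given for Cidea holds for it too.

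**Figure D3:**
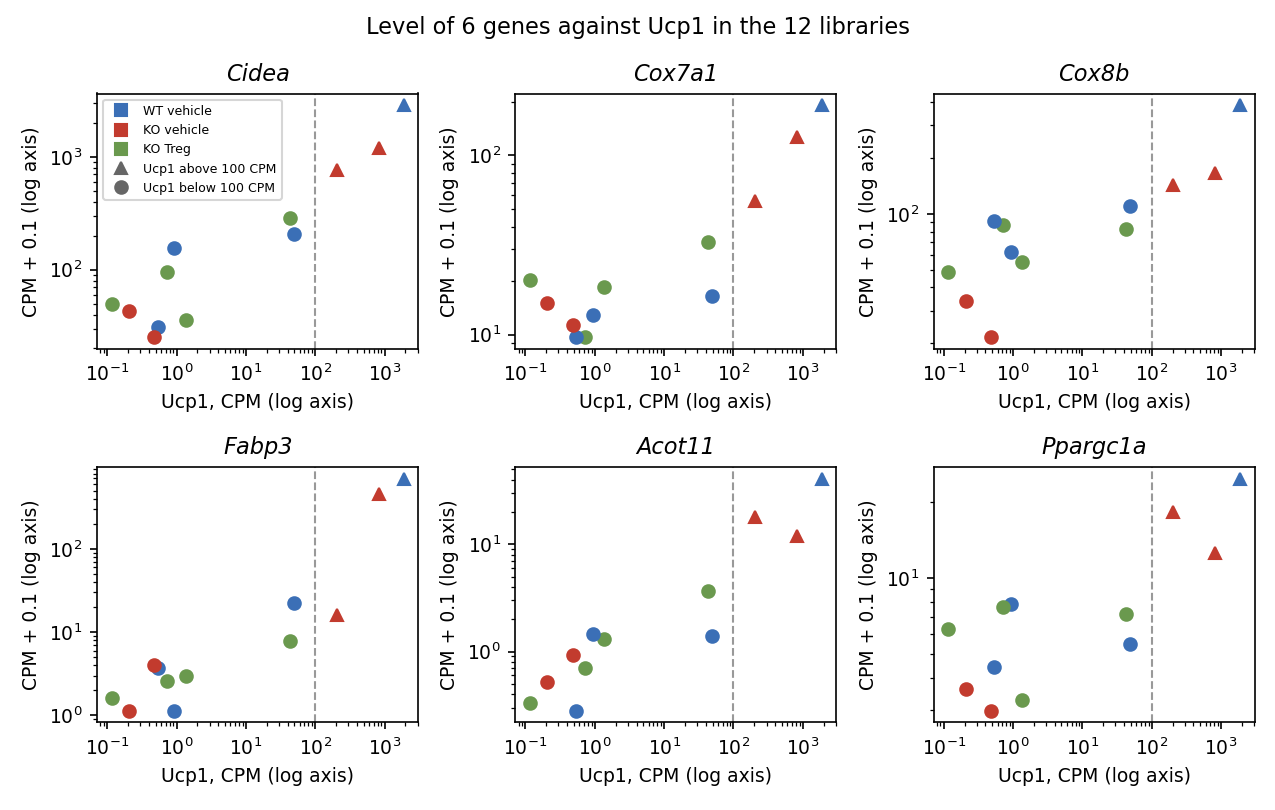
CPM + 0.1 of 6 genes against the CPM of Ucp1 (both log axes), 1 point per library; the dashed line is the 100 CPM threshold. Cidea and Cox7a1 keep the Ucp1 order among the 3 high libraries, Fabp3 drops to 15.9 CPM in KO vehicle 3, and Acot11 and Ppargc1a are higher in KO vehicle 3 than in KO vehicle 2.

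The rule for naming genes took those with no overlap, at least a 2-fold difference over all libraries and also within WT vehicle and within KO vehicle, and no less than 5 CPM on average in whichever set was higher. Of the 12928 genes kept, it gave 15 that were higher: Ucp1, 9 of the thermogenic list, Ppargc1a and 4 outside the lists of brown fat genes. Otop1 and Perm1, 2 of the 15, were kept through the high libraries. The rule gave no gene that was lower. All 14 other than Ucp1 were highest in WT vehicle 1, and 9 of them kept the Ucp1 order across the 3 high libraries. WT vehicle 1 is the only high library of its group, so the rule favours genes that are highest in it. The share of all genes with this order was not computed, so both counts are a description only.

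The 2 libraries just below the threshold were intermediate for a few genes. Of the 14 genes other than Ucp1, 3 (Cidea, Cpt1b and Otop1) were higher in both WT vehicle 4 and KO Treg 2 than in each of the other 7 low libraries. WT vehicle 4 exceeded those 7 for 6 of the 14 genes, and KO Treg 2 for 9. Dio2, for example, was at 3.91 CPM in WT vehicle 4 and 0.686 CPM in KO Treg 2, while S100b was at 7.44 and 21.3 CPM. In WT vehicle 4, Otop1 and Perm1 rest on 7 counts each. The share of all genes for which each of these 2 libraries exceeds the other 7 was not computed, so the counts of genes are a description only. With a threshold of 20 CPM, which moves both into the high set, 11 genes in all and 4 of the thermogenic list were higher without overlap by at least 2-fold, and none was lower.

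The 4 genes of the rule outside the lists are Perm1, Tuba8, Impa2 and Fndc8. Perm1, a muscle regulator induced by PGC-1 and estrogen-related receptors, was at 22.4, 9.57 and 1.91 CPM in WT vehicle 1, KO vehicle 2 and KO vehicle 3, against 0 to 0.913 CPM in the low libraries (log2 ratio 3.75). Tuba8, an alpha-tubulin, was at 29.8, 7.81 and 7.43 CPM against 2.16 to 5.83 CPM (1.84). Impa2, an inositol monophosphatase, was at 59.7, 38.4 and 38.4 CPM against 8.14 to 36.6 CPM (1.48), so its separation is narrow, with WT vehicle 2 the highest of the low libraries. In the annotation Impa2 and Cidea are neighbours on the same strand, 21131 bases apart. Fndc8 was at 6.40, 4.40 and 5.31 CPM against 0.261 to 4.34 CPM (1.10), with almost no gap, and its exons overlap Nle1 on the opposite strand.

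Of the other genes higher without overlap by at least 2-fold, chosen here after their values were seen, 3 act in hormone signalling or at the cell surface. Adcy3, an adenylyl cyclase that makes cAMP, was at 93.8, 38.5 and 22.6 CPM in WT vehicle 1, KO vehicle 2 and KO vehicle 3, against 10.5 to 19.2 CPM (log2 ratio 1.71), and its exons overlap Cenpo on the opposite strand. Kcnk3, a potassium channel of brown adipocytes, was at 82.2, 50.4 and 55.5 CPM against 12 to 46.0 CPM (1.05). Adrbk2, a kinase of beta-adrenergic receptors, had a ratio of 1.06, and the mitochondrial carrier Slc25a34 one of 1.96. The receptor gene Adrb1 had a ratio of 1.07, with overlap. The list of sympathetic and beta-adrenergic response genes did not separate the libraries. Of its 12 genes kept, 6 had a ratio above 0 and 6 below, the median was 0.04, and 0 were without overlap. In the list of mitochondrial carriers and uncoupling relatives, 1 of 23 was higher without overlap, and the median was 0.12.

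Among transcriptional regulators of brown fat, 3 of the 24 found in the files were higher without overlap. Of the 22 kept, 2 were, beside 102 of all 12928 genes kept (0.789%). Ppargc1a was at 24.6, 12.4 and 18.2 CPM in WT vehicle 1, KO vehicle 2 and KO vehicle 3, against 2.87 to 7.78 CPM in the low libraries (log2 ratio 1.70). Esrrg, an estrogen-related receptor, was at 1.39, 0.990 and 0.531 CPM against 0 to 0.359 CPM, which is 5 to 18 counts in the high libraries; its mean was below 0.5 CPM, so it is not among the 22 kept. Rxrg, a retinoid X receptor, had a ratio of 0.52. Ppara, a fatty acid sensor, was at 135, 80.0 and 43.2 CPM against 14.9 to 44.9 CPM (1.64), and KO vehicle 1 (44.9 CPM) lay above KO vehicle 3.

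The regulators that set brown fat identity differed less. Prdm16 was at 35.2, 23.5 and 24.6 CPM in the high and 14.1 to 27.7 CPM in the low libraries (log2 ratio 0.39). Ebf2 had a ratio of 0.33, Esrra of 0.29, Pparg of -0.31 and Cebpa of -0.07, all with overlap. The median over the 22 regulators kept was 0.14.

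No marker of the place of origin that passed the filter separated the libraries. Zic1 and Lhx8, which mark the classical brown fat of the back, were at 0 to 0.456 CPM and 0 to 0.330 CPM in all 12 libraries. The 7 listed markers of classical brown fat, 5 of them kept, summed to 99.2 to 199 CPM in the high libraries. In the low libraries they summed to 96.4 to 160 CPM, and the highest sum was that of WT vehicle 1. Of the 12 genes listed as beige adipocyte markers, 11 were kept, none separated the libraries, and their median ratio was 0.15. Among them Tbx1 was at no more than 0.229 CPM and Tmem26 at 0.467 to 1.80 CPM in every library. The summed level of the 12 was 582, 390 and 378 CPM in WT vehicle 1, KO vehicle 2 and KO vehicle 3, against 315 to 404 CPM in the low libraries. In the list of genes preferred in white adipocytes the median was -0.09. Beside 80 of all 12928 genes (0.619%), 1 of its 24 was lower without overlap.

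That gene is Agt, angiotensinogen, at 147, 113 and 128 CPM in WT vehicle 1, KO vehicle 2 and KO vehicle 3, against 158 to 355 CPM in the low libraries (log2 ratio -0.89). KO Treg 2 (158 CPM) and KO vehicle 1 (165 CPM) lay closest to the high libraries. By group, Agt was at 113 to 198 CPM in KO vehicle, 147 to 355 CPM in WT vehicle and 158 to 282 CPM in KO Treg. In the edgeR tests between groups described below, Agt was not called in any comparison. Its log2 fold change was -0.83 ± 0.257 (SE) in KO vehicle against WT vehicle (edgeR adjusted p = 0.18). In KO Treg against KO vehicle it was 0.61 ± 0.256 (edgeR adjusted p = 0.519). The ratio of high-Ucp1 over low-Ucp1 libraries for Agt was -1.04 within WT vehicle and -0.59 within KO vehicle. The part of the group in the difference between high-Ucp1 and low-Ucp1 libraries was not tested. The shared adipocyte genes had a median of 0.06, with none of 19 without overlap.

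Genes of mitochondrial respiration mostly had ratios slightly above 0. Of 81 respiratory chain genes kept (all 5 complexes), 76 had a ratio above 0, with a median of 0.25, and 5 were higher without overlap. Over all 12928 genes kept, 5801 had a ratio above 0 and 102 (0.789%) were higher without overlap. Leaving out the 3 that are also on the thermogenic list, 73 of 78 lay above 0, with the same median. The medians were 0.42 within WT vehicle and 0.31 within KO vehicle for all 81. Besides Cox7a1 and Cox8b, the genes without overlap were Cox6b1 (0.45), Ndufs3 (0.42) and Cycs (0.50). The 2 tissue-restricted subunits had ratios of 2.91 and 1.81, beside a median of 0.31 over the 14 genes of complex IV.

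Of 34 fatty acid oxidation genes kept, 29 had a ratio above 0, the median was 0.37, and 6 were higher without overlap. Beside them stand 5801 of all 12928 genes above 0 and 102 (0.789%) higher without overlap. Genes also on the thermogenic list, such as Cpt1b, were not left out here. The median of the 34 was 0.66 within WT vehicle and 0.12 within KO vehicle. It was above that of the respiratory chain in the first group and below it in the second. Acadvl, which starts beta-oxidation of very long chains, was at 834, 513 and 498 CPM in WT vehicle 1, KO vehicle 2 and KO vehicle 3, against 310.3 to 393 CPM in the low libraries (0.77). Both subunits of the mitochondrial trifunctional protein, Hadha (0.65) and Hadhb (0.63), were among the 6, as were Decr1 (0.55), Hadh (0.51) and Cpt1b. In the citric acid cycle list, Sucla2 (0.71), Suclg1 (0.53) and Ogdh (0.51) were higher without overlap, 3 of 26. By contrast the median of 23 genes of fatty acid synthesis was -0.33, at -0.38 within WT vehicle and 0.77 within KO vehicle, so the 2 groups differ in sign.

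Of 20 genes of glucose uptake and glycolysis, 18 had a ratio above 0, beside 5801 of all 12928 genes, and none was without overlap. Their median was 0.18, at 0.27 within WT vehicle and 0.46 within KO vehicle. The 18 genes of branched-chain amino acid breakdown had a median of 0.07, and none was without overlap. Plin2, a lipid droplet coat protein, was higher without overlap (0.61).

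Creatine and calcium cycling genes did not separate as a group. Alpl, the alkaline phosphatase of that pathway, was higher without overlap, at 23.4, 20.6 and 18.3 CPM against 9.37 to 14.3 CPM (log2 ratio 0.72), while Ckb, creatine kinase B, had a ratio of -0.74 with overlap. The median of the 12 genes kept was -0.23. Fgf21, a hormone released by active brown fat, and Th and Dbh, enzymes of noradrenaline synthesis, had 0 counts in every library, and 3 counts correspond to 0.231 to 0.540 CPM at these depths.

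**Figure D4:**
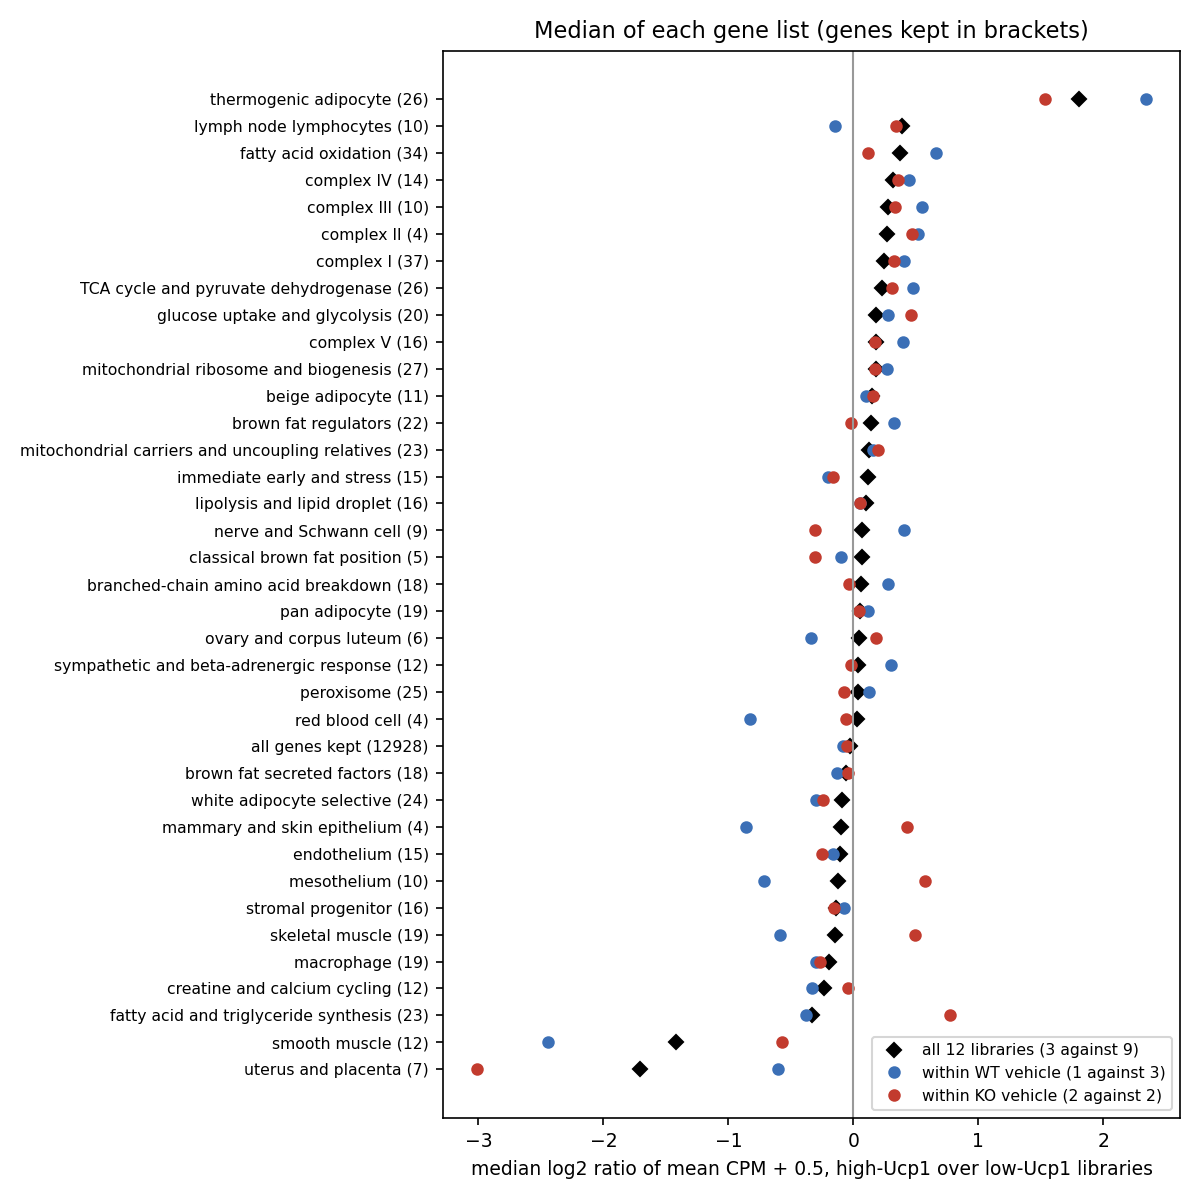
Median log2 ratio of mean CPM + 0.5, high-Ucp1 over low-Ucp1 libraries, for each gene list with at least 4 genes kept and for all genes; black diamonds are all 12 libraries, blue circles WT vehicle alone and red circles KO vehicle alone. The thermogenic list stands at 1.81, the respiratory and fatty acid oxidation lists at 0.18 to 0.37, and the smooth muscle list at -1.42. The uterus and placenta list stands lowest at -1.71. It is not read as a result, because all its kept genes except Psg23 passed the filter through low-Ucp1 libraries.

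Of the 80 genes lower without overlap, 8 were lower by at least 2-fold, and most of these 8 were low in all libraries. Of the 80, 28 had a mean under 5 CPM in the low-Ucp1 libraries, and others were abundant. Trf, transferrin, for example, was chosen here after its values were seen and had means of 2705 CPM in the high and 4449 CPM in the low libraries (log2 ratio -0.72). Serpina3k, a serine protease inhibitor chosen here after its values were seen, was at 6.94, 6.60 and 8.81 CPM in WT vehicle 1, KO vehicle 2 and KO vehicle 3, against 12.4 to 116 CPM in the low libraries (log2 ratio -3.00). All 4 KO vehicle libraries were low, at 6.60 to 13.4 CPM, so within that group the ratio was -0.71. Its exons overlap those of its relative Serpina3m on the same strand, so its counts are uncertain. Psg23, a pregnancy-specific glycoprotein of the placenta, was at 12.2 to 17.1 CPM in the high and 18.9 to 166 CPM in the low libraries, with its 2 largest values in KO vehicle 1 and KO Treg 2. The other 6 genes (Slco2a1, Sytl2, Agr2, Bzrap1, Rfx2 and Psd) had means of at most 2.45 CPM in either set. The count of 8 is not stable: it was 24 without KO vehicle 1 and KO Treg 2 together. Leaving out 1 library at a time, the omission of KO vehicle 2 gave 44 genes, that of WT vehicle 1 gave 32 and that of KO vehicle 3 gave 22. Among low-Ucp1 libraries, omitting KO vehicle 1 gave 19, omitting KO Treg 3 gave 13, omitting WT vehicle 3 gave 5 and omitting KO Treg 1 gave 4.

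The summed level of 17 uterus and placenta genes was 12.6 to 17.6 CPM in the high and 19.0 to 260.3 CPM in the low libraries. KO Treg 2 and KO vehicle 1 (113 CPM) held the highest sums, and the other 7 low libraries 19.0 to 31.7 CPM. All of the 7 genes kept except Psg23 passed the filter on low values through low-Ucp1 libraries, so no count or median of their ratios is given. Tpbpa was at 0 in all 3 high libraries. Its part in the lower genes was not tested beyond leaving out those 2 libraries.

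Smooth muscle genes were low in the 3 high-Ucp1 libraries but also in some low ones. All 12 genes of that list had a ratio below 0, beside 7127 of all 12928 genes. Their median was -1.42 (-2.44 within WT vehicle and -0.57 within KO vehicle), and none was without overlap. Actg2, an enteric and uterine smooth muscle actin, was at 0.694, 6.27 and 4.14 CPM in WT vehicle 1, KO vehicle 2 and KO vehicle 3, and from 0.456 to 232 CPM in the low libraries. Cnn1, calponin, was at 6.32, 12.2 and 7.86 CPM, and from 2.73 to 265 CPM. KO Treg 3 was the lowest of the low libraries for both genes, and KO vehicle 1 the next. The summed level of the list was 723 to 1067 CPM in the high and 771 to 4508 CPM in the low libraries, and its part in the other results was not tested.

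**Figure D5:**
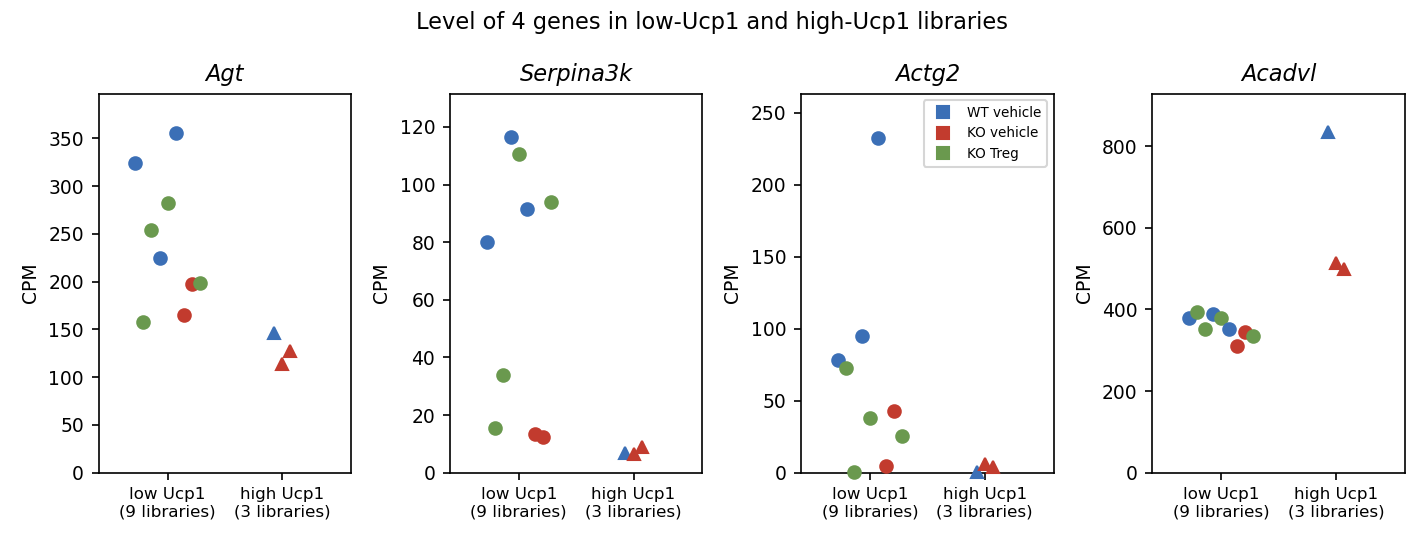
CPM of Agt, Serpina3k, Actg2 and Acadvl in the 9 low-Ucp1 and 3 high-Ucp1 libraries, coloured by group (axes start at 0). Agt, Serpina3k and Acadvl do not overlap between the sets, and for Actg2 the low libraries run from 0.456 to 232 CPM and include values as low as the high ones.

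Markers of neighbouring tissues did not follow Ucp1. The summed level of 20 skeletal muscle genes was 117 to 174 CPM in the high and 40.0 to 217 CPM in the low libraries, and WT vehicle 1 had the lowest of the 3 high values, so the myoglobin gene departs from the rest of its list. The 12 kidney markers summed to 13.5 to 18.8 CPM against 7.54 to 22.9 CPM, with 3 at 0 in all libraries. The 12 adrenal markers summed to 18.9 to 26.6 CPM against 22.4 to 55.7 CPM, with 4 at 0 throughout. The 6 heart muscle genes summed to 1.70 to 4.25 CPM against 2.43 to 28.4 CPM, the highest being WT vehicle 4.

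The median ratio was -0.19 for macrophage genes, -0.11 for endothelial genes and -0.14 for stromal progenitor genes, and Pdgfra (-0.47), a receptor of adipocyte progenitors, was the 1 gene of these 3 lists without overlap. The 18 lymphocyte genes summed to 9.34 to 23.3 CPM in the high and 4.14 to 18.7 CPM in the low libraries. Of the 10 kept, 9 had a ratio above 0, beside 5801 of all 12928 genes. Their median was 0.39 (-0.15 within WT vehicle and 0.34 within KO vehicle), and none was without overlap. Of the 14 nerve and Schwann cell markers, 9 were kept, and S100b, which is also on the thermogenic list, was the one that separated the libraries. Sox10, a transcription factor that marks Schwann cells, did not separate them, with a ratio of 0.25. The part of nerve cells in the S100b level was not tested.

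The pattern seen within WT vehicle was then set beside the KO vehicle libraries, which share no library with it. WT vehicle 1 was at least 2-fold above every other WT vehicle library, at 5 CPM or more, for 60 genes (0.464% of 12928), 16 of which are on the thermogenic list. In KO vehicle, replicates 2 and 3 were both above replicates 1 and 4 for 34 of these 60 (56.7%), beside 9.78% of all genes. Of the 16 thermogenic genes 15 did so, and of the 43 that are neither on that list nor Ucp1, 18 (41.9%). Of all 26 thermogenic genes kept, chosen without regard to WT vehicle, 21 did so. Ucp1 is itself among the 60 and the 34, and its place there was fixed by the choice of libraries. Otop1, Perm1 and Slc27a2, also among the 60 and the 34, were kept through high-Ucp1 libraries. The 60 had to reach 5 CPM in WT vehicle 1, while the share over all genes has no such floor. WT vehicle 1 was at least 2-fold below the others for 82 genes (0.634%), and of these 16 (19.5%) were below in KO vehicle as well, beside 18.3% of all genes. So the higher genes were shared between the groups more often than genes at large, and the lower genes about as often, as a description of these 8 libraries.

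Finally, the thermogenic genes were tested between the study groups, which the labels define without regard to Ucp1. In 1 edgeR quasi-likelihood fit of 12175 genes, 34 genes (0.279%) differed between KO vehicle and WT vehicle, 1 (0.00821%) between KO Treg and KO vehicle and 0 (0.0%) between KO Treg and WT vehicle at an adjusted p under 0.05. The 34 moved by more than 1.5 times, to between 1 (KO vehicle 1, for example) and 125 (WT vehicle 4), when any 1 library other than WT vehicle 1 or KO Treg 2 was left out, and the 1 was lost without any 1 library. Genes with an unadjusted p under 0.05 numbered 1514, 1068 and 349, and DESeq2 called 259, 68 and 1. Ucp1 and 24 thermogenic genes were tested, and none was called in any of the 3 comparisons by edgeR or by DESeq2. At an unadjusted p under 0.05 there were 0, 0 and 4 of these 25 (Dio2, Gyk, Slc25a20 and Mpzl2, all lower in KO Treg than in WT vehicle).

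For Ucp1 the log2 fold change was -1.02 ± 2.43 (SE) in KO vehicle against WT vehicle (edgeR adjusted p = 0.916), -4.43 ± 2.85 in KO Treg against KO vehicle (0.727) and -5.45 ± 2.97 in KO Treg against WT vehicle (1.0). Of the 24 thermogenic genes, 20, 21 and 22 had a value below 0 in these comparisons, with medians of -0.41, -0.66 and -1.12, beside -0.0039, -0.0018 and -0.0040 over all genes. The comparisons share control libraries and are not independent of each other. The difference between KO vehicle and WT vehicle rested on 1 library: without WT vehicle 1, the log2 fold change of Ucp1 was 3.89 (edgeR adjusted p = 0.658), that of Cidea 1.91 (0.70) and that of Fabp3 3.65 (0.574), all with the opposite sign.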

How the data were processed

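RNA was measured by QuantSeq 3' sequencing in 12 libraries. The authors deposited raw counts per gene symbol (20632 symbols, 4160 at 0 in every library, no row without a name). The submitters' processing notes name TopHat2 2.1.1, BWA 0.7.12, HTSeq 0.6.1, the build mm10 and SAMtools 1.3.1. What each tool did, which annotation was used and whether counting used strand is not given in the sources, so reads of overlapping genes cannot be told apart. Exons of Dio2, Elovl3, Fabp3, Acot11, Slc27a2, Adrb3, Prdm16, Ebf2, Tuba8, Impa2, Mb and Acadvl also overlap other annotated genes on the opposite strand. 3' counts are not corrected for length, so levels are compared across libraries and not between genes. Per the labels, each library has its own number in the title; replicates are numbered in the order of accession and are unpaired. All 66 pairs of libraries differed by more than sampling noise (lowest mean chi-square per gene 12.5).

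The members and the 39 gene lists were chosen with earlier results of these data known. CPM used library totals. Genes were kept at a mean of 0.5 CPM over 12 libraries, instead of the filter first planned (filterByExpr without groups), which removed Ucp1 and other genes counted as higher, and was run as an alternative. The rule for named genes took the brown fat lists, up to 15 genes in each direction with no overlap, at least 2-fold in each group and 5 CPM, up to 5 genes per other list, and the list genes of smallest p; the text gives some of them. Tests used edgeR 4.0.16 (R 4.3.3, TMM, filterByExpr by group, robust fit, 3 groups, Benjamini-Hochberg, threshold 0.05); DESeq2 1.42.0 was an alternative. The SE is the size of the log2 fold change divided by the square root of F. Scripts were tested on simulated data. Alternatives were other scalings, filters, thresholds, an offset of 2 CPM, medians, the number series, and leaving out each library. Gene positions are from GENCODE M21 and promoters from RefSeq.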

Additional observations from a re-analysis of the deposited data

Results flagged for a closer look

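In groups of 4 libraries, a value was marked where its gap to the nearest other library, divided by the range of the group, exceeded Dixon's 95% limit. Of 102 tests (34 genes in 3 groups), 31 passed the limit. Chance passes it in about 1 in 20 groups if values are normally distributed, which was not checked for these CPM. Ucp1 chose the libraries and most of the genes were named because they separate them, so the number of marks is not evidence of a pattern. WT vehicle 1 lay far above the other libraries of its group for Ucp1 at 1886 CPM, Cidea at 2889.5 CPM, Cpt1b at 115 CPM, Cox7a1 at 191 CPM, Cox8b at 386 CPM, Dio2 at 51.3 CPM, Fabp3 at 697 CPM, Otop1 at 21.1 CPM, Acot11 at 40.9 CPM, Pank1 at 134 CPM, Slc27a2 at 16.0 CPM, Gyk at 106 CPM, S100b at 70.3 CPM, Letmd1 at 179 CPM, Ppargc1a at 24.6 CPM, Esrrg at 1.39 CPM, Perm1 at 22.4 CPM, Tuba8 at 29.8 CPM, Mb at 15.7 CPM, Acadvl at 834 CPM, Adcy3 at 93.8 CPM and Kcnk3 at 82.2 CPM. KO Treg 2 lay far above the other libraries of its group for Ucp1 at 43.2 CPM, Otop1 at 2.17 CPM and Slc27a2 at 0.457 CPM. KO vehicle 2 lay far above the other libraries of its group for Fabp3 at 449.9 CPM, Slc27a2 at 5.28 CPM, Gyk at 42.1 CPM and Mb at 9.79 CPM. KO vehicle 4 lay far above the other libraries of its group for Actg2 at 42.8 CPM and Cnn1 at 47.8 CPM. In WT vehicle 1 these were 22 genes. Slc27a2 in KO Treg 2 rests on 4 counts and Esrrg in WT vehicle 1 on 18.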

How the results depend on the processing

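The number of genes without overlap and at least 2-fold higher (23, of which 10 on the thermogenic list) or lower (8) was recomputed under other settings. The lower count was 2 with an offset of 2 CPM, 5 with medians, 18 in the lower number series alone and 28 in WT vehicle and KO vehicle alone. Other settings were chosen after seeing the data: a threshold of 20 CPM gave 11 higher, 0 lower and 4 thermogenic genes, a threshold of 500 CPM gave 51, 21 and 17, filterByExpr without groups gave 13 higher and 2 lower, and leaving out the 2 libraries with placental transcripts gave 24 lower. Leaving out 1 library at a time gave 22 to 62 higher, 4 to 44 lower and 10 to 19 thermogenic genes. The log2 ratios of 33 genes under 24 settings gave 792 values, of which 769 lay within 1 SD of the main value and none of those called without overlap changed sign. The cause of these changes was not tested.

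Between study groups, edgeR calls for KO vehicle against WT vehicle were 0 with the number series as a covariate, 0 without the 3 high-Ucp1 libraries, 259 with DESeq2, and 1 to 125 when 1 library was left out. For KO Treg against KO vehicle they were 0 with RLE scaling, with the number series, with the 2 groups alone, without the 3 high-Ucp1 libraries and without any 1 library (0 to 0), and 68 with DESeq2. KO Treg against WT vehicle gave 1 with DESeq2. No setting called Ucp1 or a thermogenic gene. Leaving out 1 library moved the log2 fold change of KO vehicle against WT vehicle between -2.82 and 3.89 for Ucp1, -1.56 and 1.91 for Cidea and -4.74 and 3.65 for Fabp3, the last of each pair without WT vehicle 1. Without the 3 high-Ucp1 libraries, KO Treg against KO vehicle turned to 5.11 for Ucp1, 1.85 for Cidea and 0.66 for Fabp3; the libraries left out were picked by Ucp1, and KO Treg keeps a library at 43.2 CPM, so this sign follows from the choice. No paired analysis was possible because the replicate numbers follow accession order. At these depths a gene under 0.231 to 0.540 CPM (3 counts) cannot be told from 0.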
